A study of Mus musculus with 18 samples.

Results

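The erythroid genes described here are 8 genes that red cell precursors express: the adult α-globin genes Hba-a1 and Hba-a2, the adult β-globin genes Hbb-bs and Hbb-bt, the heme enzyme gene Alas2, the transcription factor gene Klf1, the membrane anion exchanger gene Slc4a1 and the erythropoietin receptor gene Epor. They were chosen by name, all 8 had an entry in the count table of 49585 genes, and they were followed through 18 RNA-Seq libraries in 6 groups of 3. All 18 libraries came from CD45+ leukocytes of Kaede mice, young adult animals that carry a photoconvertible fluorescent protein, so that cells in a tissue exposed to violet light turn from green to red and can be found after they move. Each library was made from cells of a pool of mice of both sexes, and the spread between libraries is therefore a spread between pools.

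In the 4 inflamed groups, mice had received OT-II T cells polarized to a Th1 phenotype with peptide, IL-12 and anti–IL-4, then 100 μg OVA in CFA, and then 100 μg heat-aggregated ovalbumin (HAO) in the footpad or the ear pinna. Kaede red+ cells were sorted from the inflamed joint (joint nonmigrated), from its draining lymph node (joint migrated), from the inflamed ear (skin nonmigrated) and from the node draining the ear (skin migrated). The other 2 groups are labeled steady state and are described in the labels as cells that had moved from the joint or ear to its node (joint steady-state node and skin steady-state node). The titles of the first carry PBS and KG, and those of the second carry Naive; the sources used here do not say what KG stands for, or whether the donors of these 2 groups had received T cells and OVA. Ptprc, which encodes CD45, stood at 1155 to 2530 CPM (read counts scaled to a common library size normalized by TMM) in every library. Library totals ran from 19239531 to 43814403 counts, and the inflamed skin libraries, at 19239531 to 22528895, were shallower than the inflamed joint libraries, at 35554698 to 43814403.

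Red cells are made in the bone marrow, where erythropoietin acts through its receptor on early precursors, KLF1 and GATA1 switch on the red cell genes, and maturing precursors fill with hemoglobin, built from α- and β-globin chains that each hold a heme. Band 3, the product of Slc4a1, exchanges chloride for bicarbonate and ties the membrane to the cell's skeleton. Precursors lose CD45 as they mature, and the mature mouse red cell has no nucleus and no CD45, so that a CD45+ sort is not set to hold it. In pooled cells such as these, fewer cells of a type and less RNA per cell cannot be told apart.

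Both globin pairs are nearly identical copies, which bears on every value given for them. Hba-a1 lies on chr11:32283511-32284465 and Hba-a2 on chr11:32296489-32297298, both on the plus strand, and Hbb-bs lies on chr7:103826534-103828096 and Hbb-bt on chr7:103812524-103813996, both on the minus strand (GRCm38, the assembly also called mm10). Over the 429 coding bases of the α pair and the 444 of the β pair, each pair had 1 difference and 99.8% identity. Counted from 1 at the A of the start codon, these were C381T from Hba-a1 to Hba-a2 and C417T from Hbb-bs to Hbb-bt. The coding stretches that hold them (bases 351 to 408 of the α genes and 387 to 444 of the β genes, from the GENCODE M21 transcripts, 5′ to 3′) are given to show how little a read can use to tell the copies apart, with the differing base in capitals.
Hba-a1: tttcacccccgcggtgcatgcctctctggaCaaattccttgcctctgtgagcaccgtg
Hba-a2: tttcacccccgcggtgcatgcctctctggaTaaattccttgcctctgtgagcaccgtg
Hbb-bs: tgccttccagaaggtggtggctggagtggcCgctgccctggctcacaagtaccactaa
Hbb-bt: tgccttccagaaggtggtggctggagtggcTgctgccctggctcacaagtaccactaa

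Windows of 100 bases, the length of 1 read, were taken from 1 GENCODE M21 transcript of each gene, 554 to 703 bases long. Of these windows, 56.5% in Hba-a1, 74.5% in Hba-a2, 62.6% in Hbb-bs and 54.8% in Hbb-bt also occurred in another globin gene. Reads were paired, and the other read of a pair was not considered. The authors' counting leaves out reads that align to more than 1 place, and 9.24% to 12.7% of the records in each library were left out for that reason, without a note of the gene. The split of counts within each globin pair is therefore uncertain, and so are their absolute levels, while the sum of the 4 genes avoids the split but not the loss.

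Globin counts were a very small share of every library, from 4.02e-05% to 0.00346% of all counts. Summed over the 4 globin genes, levels were 28.8, 17.7 and 17.2 CPM in joint nonmigrated replicates 1, 2 and 3, and 26.9, 2.62 and 2.70 CPM in joint migrated replicates. In skin nonmigrated cells the sums were 41.5, 4.33 and 8.0 CPM, and in skin migrated cells 4.33, 0.399 and 0.399 CPM. The steady-state nodes held 1.20, 1.67 and 2.53 CPM (joint) and 1.44, 1.90 and 1.31 CPM (skin). Replicate 1 was the highest library in each of the 4 inflamed groups, 9.98 times the next one in joint migrated, 10.8 times in skin migrated, 5.19 times in skin nonmigrated and 1.63 times in joint nonmigrated cells. Mean sums ± SD (n = 3) were 21.2 ± 6.53 CPM in joint nonmigrated, 17.96 ± 20.5 in skin nonmigrated, 10.8 ± 14.0 in joint migrated, 1.80 ± 0.674 in joint steady-state node, 1.71 ± 2.27 in skin migrated and 1.55 ± 0.309 in skin steady-state node cells. Joint nonmigrated cells were thus the only inflamed group in which all 3 libraries held more than 10 CPM of globin, whereas in the other 3 inflamed groups the SD exceeded the mean.

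Hbb-bs was the most abundant member in every group per length of exon, with 14.4 CPM per kilobase in joint nonmigrated cells against 6.36 for Hba-a1, 4.47 for Hba-a2, 2.92 for Hbb-bt, 0.311 for Alas2, 0.290 for Slc4a1, 0.271 for Epor and 0.227 for Klf1. Its CPM were 15.2, 9.17 and 8.75 in joint nonmigrated, 15.4, 1.56 and 1.24 in joint migrated, 22.4, 2.16 and 4.11 in skin nonmigrated and 2.00, 0.200 and 0.177 in skin migrated replicates. In the steady-state nodes it stayed between 0.489 and 1.33 CPM. Hba-a1 was likewise highest in replicate 1, with 6.48, 4.82 and 4.21 CPM in joint nonmigrated and 5.46, 0.514 and 0.622 CPM in joint migrated replicates. It stood at 9.83, 0.994 and 1.98 CPM in skin nonmigrated and 1.07, 0.150 and 0.222 CPM in skin migrated replicates. For each globin gene, the ranges of every pair of groups next to each other in the order of the means overlapped.

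**Figure D1:**
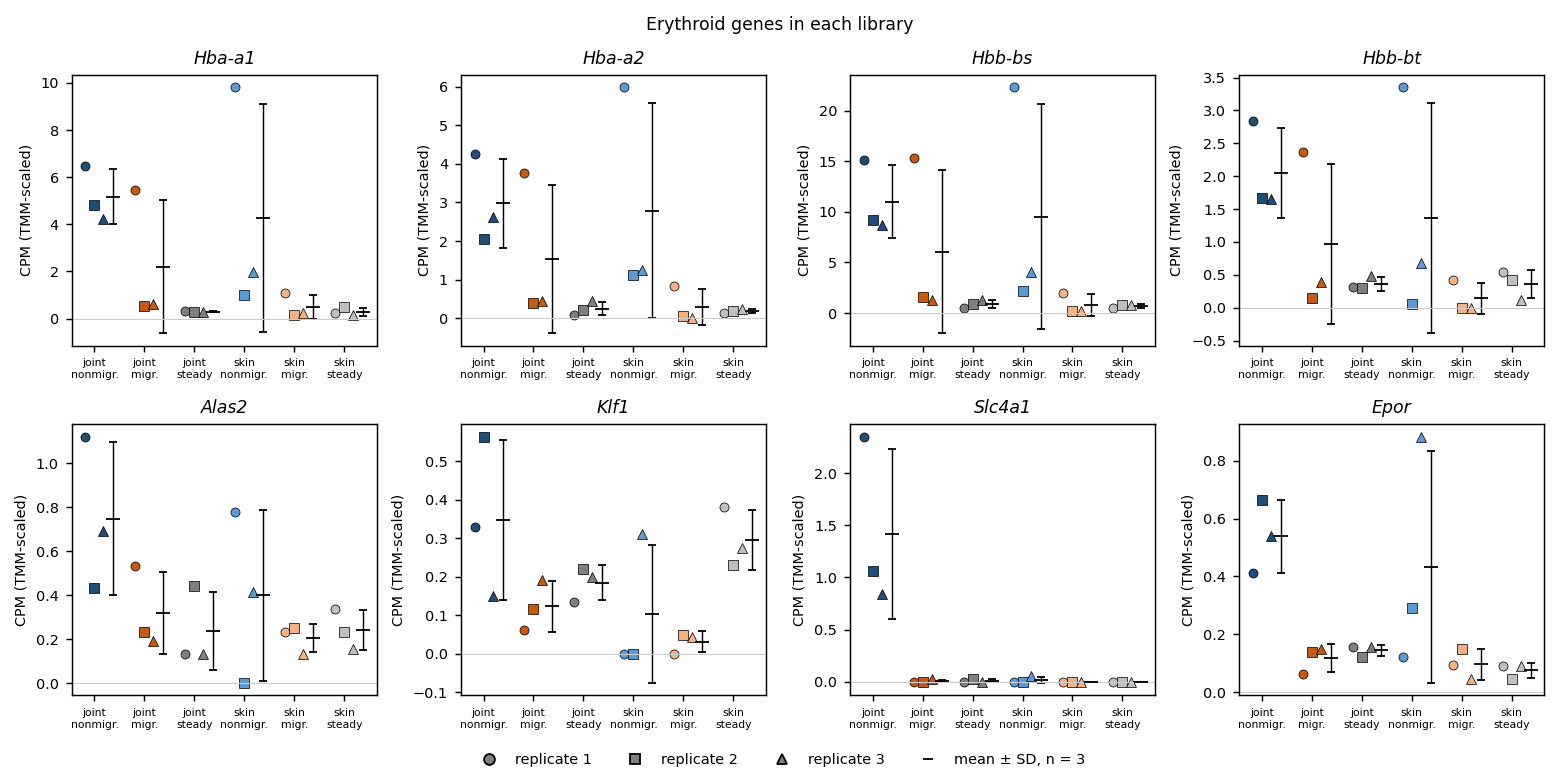
Level of each of the 8 genes (y axis, CPM, on a separate linear scale in each panel) in the 18 libraries by group (x axis), with the symbol giving the replicate and the bar the mean ± SD of 3 libraries. Replicate 1 is the highest inflamed library of its group for all 4 globin genes, reaching 22.4 CPM of Hbb-bs in skin nonmigrated cells, while Slc4a1 stands clear of 0 in joint nonmigrated cells, at 0.842 to 2.35 CPM.

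Across the 18 libraries the 4 globin genes varied together, with pairwise Pearson's r of 0.927 (Hba-a2 and Hbb-bt) to 0.991 (Hba-a2 and Hbb-bs) on the log2(CPM + 1) scale. These are descriptions over libraries that share groups, and the pairs also share reads that could have gone to either copy. Alas2 followed the globin genes at r of 0.779 to 0.871, Slc4a1 at 0.546 to 0.593 and Epor at 0.329 to 0.454, and Klf1 did not, at −0.0285 to 0.177. The α share of globin counts was 28.1% to 40.3% (median 38.1%) in the 9 libraries with at least 100 globin counts, and was similar in libraries of very different globin level. It was 37.4% (95% exact Clopper-Pearson interval 34.4 to 40.4) in joint nonmigrated replicate 1, 34.2% (31.6 to 36.8) in joint migrated replicate 1 and 38.1% (34.5 to 41.8) in skin nonmigrated replicate 1. These intervals cover counting error only.

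The stretches of 110 bases before the RefSeq starts of the members (GRCm38.p6) are shown because the globin genes and Alas2 varied together and their starts can be set side by side. Capitals mark the TATA box letters TATAA, the CCAAT box, the CACCC element, of the kind that KLF1 binds, and the GATAA element, of the kind that GATA1 binds. Both strands were searched and overlaps allowed, so that on the printed strand GGGTG marks a CACCC element, ATTGG marks a CCAAT box and TTATC marks a GATAA element on the other strand. An entry was found for 7 of the 8 genes, not for Slc4a1, and the Hba-a1 stretch occurs whole in the Hba-a2 entry, so 1 of the pair is printed. The stretches are chr11:32283562-32283671 (Hba-a1, plus strand), chr7:103827929-103828038 (Hbb-bs, minus), chr7:103813924-103814033 (Hbb-bt, minus), chrX:150547307-150547416 (Alas2, plus), chr8:84901872-84901981 (Klf1, plus) and chr9:21963577-21963686 (Epor, minus).
Hba-a1: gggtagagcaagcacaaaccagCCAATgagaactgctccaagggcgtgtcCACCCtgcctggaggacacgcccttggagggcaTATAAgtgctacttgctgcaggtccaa
Hbb-bs: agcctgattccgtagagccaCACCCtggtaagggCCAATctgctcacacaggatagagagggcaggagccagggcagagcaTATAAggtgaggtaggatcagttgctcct
Hbb-bt: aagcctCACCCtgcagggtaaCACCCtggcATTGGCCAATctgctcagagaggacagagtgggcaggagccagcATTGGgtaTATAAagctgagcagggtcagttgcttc
Alas2: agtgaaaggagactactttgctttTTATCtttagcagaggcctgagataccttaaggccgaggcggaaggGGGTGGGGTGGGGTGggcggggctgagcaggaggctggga
Klf1: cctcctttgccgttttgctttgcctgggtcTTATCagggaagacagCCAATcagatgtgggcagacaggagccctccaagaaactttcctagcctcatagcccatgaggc
Epor: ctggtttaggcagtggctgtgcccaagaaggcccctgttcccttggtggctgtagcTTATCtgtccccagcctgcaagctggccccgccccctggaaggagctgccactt

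The 4 globin genes held a TATA box, a CCAAT box and a CACCC element in these stretches. Over the whole 250 bases before the start, GATAA was found in all 7 members with an entry, against 22.6% of the 32851 RefSeq promoters of the same length. CACCC was also found in all 7, against 52.0% of promoters, while CCAAT (33.8% of promoters) was found in the globin genes and Klf1, and TATAA (22.8%) in the globin genes and Alas2. A match of letters is a description and says nothing of whether a factor was bound in these cells.

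The comparison of joint migrated with joint nonmigrated cells asks which genes differ between cells that left the inflamed joint and cells that stayed. Slc4a1 and Epor fell in joint migrated cells, and the globin genes and Alas2 did not pass the test in this fit, which had no replicate block. Of the 7 members that passed the filter on low counts, 2 were called lower and 0 higher by edgeR's quasi-likelihood test (Benjamini-Hochberg adjusted p under 0.05 and absolute log2 fold change above 1), where 34.3% of all 16777 genes were called, 18.4% lower. The members' share was therefore close to the background of this comparison, and their median log2 fold change was −1.21 against 0.018 over all genes tested.

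Slc4a1, on chr11:102348824-102366203 (minus strand), had 86, 32 and 28 counts in joint nonmigrated replicates 1, 2 and 3. Joint migrated replicates had 0, 0 and 1 counts, skin nonmigrated 0, 0 and 1, joint steady-state node 0, 1 and 0, and both skin migrated and skin steady-state node 0 in all 3. All 3 joint nonmigrated libraries were above all 15 others. The ratio of joint nonmigrated to joint migrated cells was 202 (95% counting interval 35.7 to 8030, 146 counts against 1), and edgeR's adjusted p was 0.000109. This call held at an adjusted p under 0.001 and without any single library.

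Slc4a1 did not follow the globin counts from group to group. It made up 7.56% (95% exact interval 6.09 to 9.25), 5.66% (3.91 to 7.90) and 4.66% (3.12 to 6.66) of the Slc4a1 and globin counts in joint nonmigrated replicates. Joint migrated replicate 1, with 1313 globin counts, had 0 (95% exact interval up to 0.281%). Skin nonmigrated replicate 1, with 693 globin counts, also had 0 (up to 0.531%). These libraries had more globin counts than joint nonmigrated replicates 2 and 3, at 533 and 573. The other libraries, with 8 to 154 globin counts, had 0 or 1 count of Slc4a1, and in those with the fewest globin counts a share like that of joint nonmigrated cells was not detectable at this depth.

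**Figure D2:**
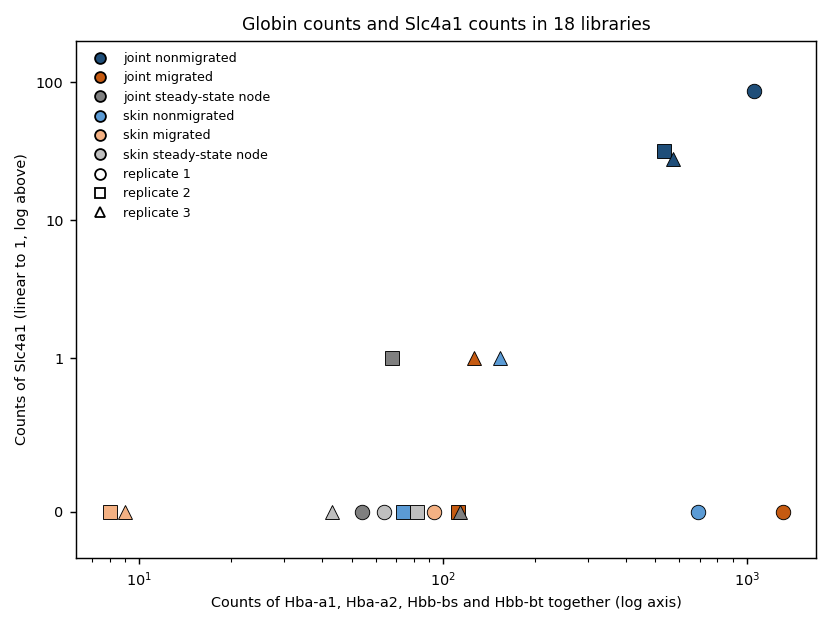
Counts of Slc4a1 (y axis, linear to 1 and log above) against the summed counts of Hba-a1, Hba-a2, Hbb-bs and Hbb-bt (x axis, log) in each of the 18 libraries, with color for group and symbol for replicate. The 3 joint nonmigrated libraries have 28 to 86 Slc4a1 counts, while joint migrated replicate 1 has 1313 globin counts and skin nonmigrated replicate 1 has 693, both with 0 Slc4a1 counts.

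Epor, the erythropoietin receptor gene on chr9:21958897-21963506 (minus strand), had 15, 20 and 18 counts in joint nonmigrated replicates against 3, 6 and 7 in joint migrated replicates, with no overlap. Its level fell by 2.16 on the log2 scale (SE 0.620, edgeR adjusted p = 0.0111). Without joint migrated replicate 1 the fall was 1.84 on the log2 scale, and the edgeR adjusted p was 0.0505. The 4 globin genes had log2 fold changes of −0.86 (Hbb-bs, SE 1.05) to −1.23 (Hba-a1, SE 0.961), with edgeR adjusted p of 0.3 to 0.51, and joint migrated replicate 1 lay within or just above the joint nonmigrated range for each. Without that library, Hba-a1 fell by 3.16 on the log2 scale (edgeR adjusted p = 0.0189) and Hbb-bs fell by 2.96 (adjusted p = 0.0395), and 3 members were then called. With the replicate number as a block, Hba-a1, Hbb-bs and Hbb-bt were called lower, at edgeR adjusted p of 0.0184, 0.0274 and 0.0483. The labels do not say that replicate numbers pair the samples.

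Alas2, which encodes the erythroid form of the first enzyme of heme synthesis, had 41, 13 and 23 counts in joint nonmigrated and 26, 10 and 9 in joint migrated replicates. These ranges overlapped, and its log2 fold change was −1.21 (SE 0.712, edgeR adjusted p = 0.169). Alas2 lies on chrX:150547375-150570638, plus strand, and 311 of its 2403 exon bases, 12.9%, are shared with Apex2 on the minus strand, which stood at 6.66 to 11.3 CPM. Whether strand was used in counting was not given in the sources used here, and reads from those bases cannot then be told apart. Klf1, on chr8:84901928-84905291 (plus strand) and with 12, 17 and 5 counts in joint nonmigrated and 3, 5 and 9 in joint migrated replicates, did not pass the filter, and in a fit with no filter on low counts its log2 fold change was −1.46 (SE 0.862, edgeR adjusted p = 0.238).

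Skin migrated cells were compared with skin nonmigrated cells to see the same move from another inflamed site. Hba-a1, Hba-a2, Hbb-bs and Epor fell in skin migrated cells. Of the 7 members tested, 4 were called lower and 0 higher by edgeR, where 35.4% of all genes were called, 19.7% lower, and the members' median log2 fold change was −3.13 against 0.0093 over all genes tested. Hbb-bs fell by 3.58 on the log2 scale (SE 1.25, edgeR adjusted p = 0.0284), Hba-a1 fell by 3.13 (SE 1.14, adjusted p = 0.0335) and Hba-a2 fell by 3.21 (SE 1.24, adjusted p = 0.0431). Hbb-bt had a log2 fold change of −3.24 (SE 1.48, edgeR adjusted p = 0.0818), with 56, 1 and 13 counts in skin nonmigrated and 9, 0 and 0 in skin migrated replicates. When each globin pair was summed before the fit, the β pair fell by 3.54 on the log2 scale (edgeR adjusted p = 0.0317).

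The skin globin calls were lost without any 1 of 3 libraries. Without skin nonmigrated replicate 1, the log2 fold changes were −1.62 (Hba-a1), −1.98 (Hba-a2) and −1.98 (Hbb-bs), with edgeR adjusted p of 0.188 to 0.239, and 1 member was called. Without skin migrated replicate 2 they were −2.73, −2.75 and −3.15, with adjusted p of 0.0889 to 0.121, and 1 member was called. Without skin migrated replicate 3 they were −2.80, −2.63 and −3.12, with adjusted p of 0.0906 to 0.115, and 0 were called.

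Epor had 2, 5 and 17 counts in skin nonmigrated and 2, 3 and 1 in skin migrated replicates, and the ranges overlapped. Its level fell by 2.18 on the log2 scale (SE 0.762, edgeR adjusted p = 0.0285), and by 1.10 (adjusted p = 0.244) without skin nonmigrated replicate 3, its highest library. The edgeR adjusted p was also 0.0713 without skin migrated replicate 1 and 0.0978 without skin migrated replicate 3. Alas2 had 13, 0 and 8 counts against 5, 5 and 3 and a log2 fold change of −0.95 (SE 0.889, edgeR adjusted p = 0.382). Slc4a1 had 1 count in the 3 skin nonmigrated and 0 in the 3 skin migrated libraries, so no fold is given.

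**Figure D3:**
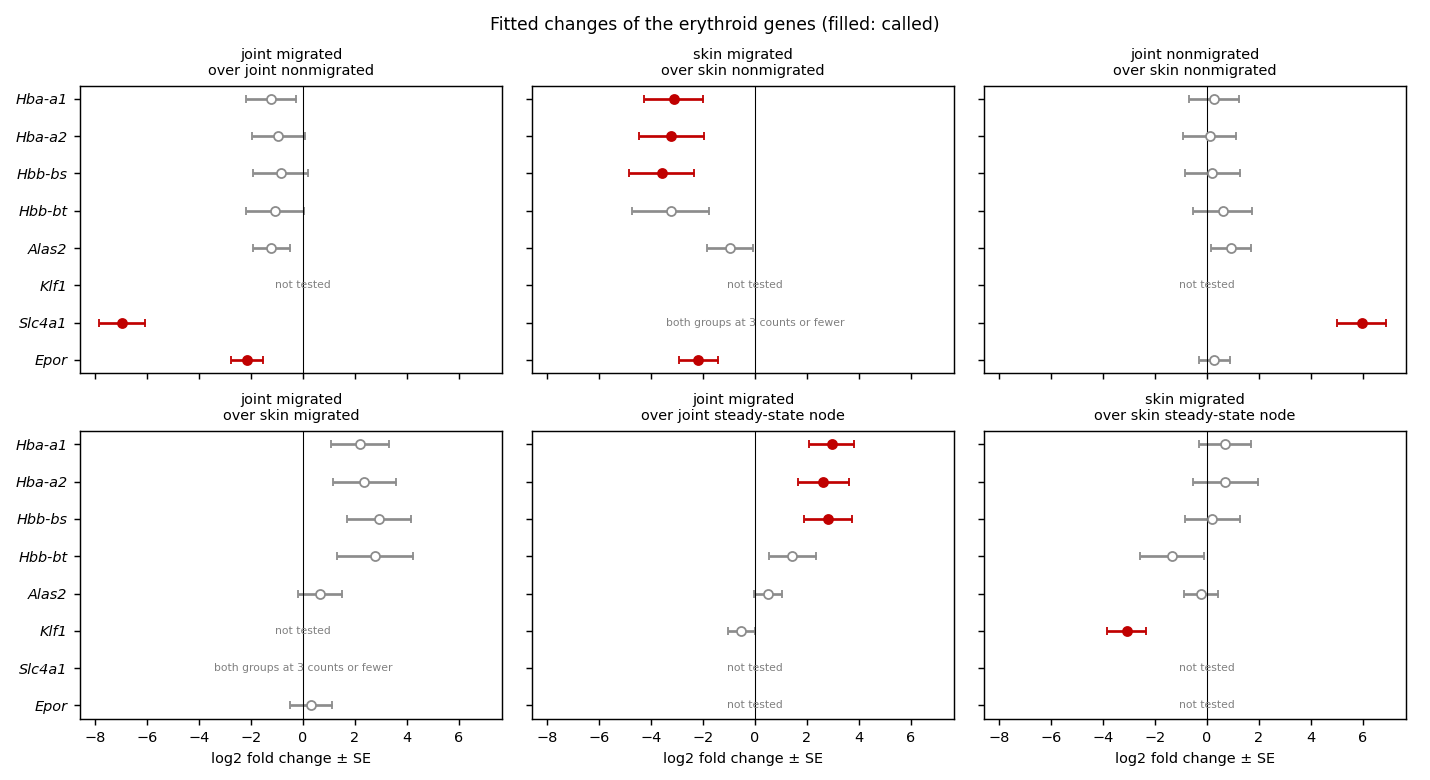
Log2 fold change (x axis, ± SE computed from edgeR's fold change and F) of the 8 genes (y axis) in 6 comparisons. Filled red points are genes called at an adjusted p under 0.05 and an absolute log2 fold change above 1. Slc4a1 is called in both comparisons of joint nonmigrated with another inflamed group; its fitted value against a group with 1 count depends on the prior count. The 3 globin genes called lower in skin migrated cells have SEs of 1.14 to 1.25.

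Whether the change from nonmigrated to migrated cells differed between joint and skin was tested with the interaction of site and migration. Of the 7 members tested, 0 were called by edgeR, where 6.13% of all genes were called, and 0 had an unadjusted p under 0.05. The interaction for Hbb-bs was 2.72 on the log2 scale (SE 1.61, edgeR adjusted p = 0.305) and for Epor 0.02 (SE 0.640, adjusted p = 0.996). The calls at 1 site and not at the other are therefore not shown to differ between sites for the globin genes. With DESeq2's Wald test 1 member was called, Slc4a1 (adjusted p = 0.0481), whose counts in both skin groups were at 0 or 1.

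The same populations were set against each other between sites, joint against skin, where site also differs in library depth and the effects of tissue and depth cannot be told apart. Slc4a1 was higher in joint nonmigrated than in skin nonmigrated cells, and it was the 1 member of 7 tested that was called by edgeR, where 14.3% of all genes were called, 5.45% higher. The ratio was 77.5 (95% counting interval 13.7 to 3080, 146 counts against 1), with an edgeR adjusted p of 0.00208. The globin genes had log2 fold changes of 0.10 (Hba-a2, SE 1.01) to 0.60 (Hbb-bt, SE 1.14), Alas2 of 0.91 (SE 0.765) and Epor of 0.28 (SE 0.596), with edgeR adjusted p of 0.398 to 0.949. Without skin nonmigrated replicate 3, 2 members were called: Slc4a1, and Klf1 (edgeR adjusted p = 0.0169), which then had 0 counts in both remaining skin nonmigrated libraries.

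Joint migrated and skin migrated cells had no member called by edgeR, 0 of 7, where 1.14% of all genes were called. Hbb-bs had an unadjusted p of 0.035, the 1 member under 0.05, with a log2 fold change of 2.93 (SE 1.23, edgeR adjusted p = 0.261), and DESeq2 called 0. The globin genes were at log2 fold changes of 2.19 to 2.93, with joint migrated replicate 1 at 26.9 CPM of globin and the other joint migrated libraries, at 2.62 and 2.70 CPM, inside the skin migrated range of 0.399 to 4.33 CPM.

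Migrated cells were compared with the steady-state cells of the same kind of node, which the labels describe as migrated from the joint or ear. These comparisons use the joint and skin migrated libraries again and are not independent of those above. Hba-a1, Hba-a2 and Hbb-bs were higher in joint migrated than in joint steady-state node cells, 3 of the 6 members tested, where 24.2% of all 17107 genes were called by edgeR, 16.9% higher. Their log2 fold changes were 2.95 (Hba-a1, SE 0.873, edgeR adjusted p = 0.0126), 2.63 (Hba-a2, SE 0.984, adjusted p = 0.0394) and 2.80 (Hbb-bs, SE 0.919, adjusted p = 0.0218). Hbb-bt, with 115, 6 and 18 counts against 14, 12 and 22, was at 1.43 (SE 0.904, adjusted p = 0.205), while the summed β pair was at 2.52 (adjusted p = 0.0332).

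These calls were lost without joint migrated replicate 1. Without it the log2 fold changes were 0.96 (Hba-a1), 0.74 (Hba-a2) and 0.65 (Hbb-bs), with edgeR adjusted p of 0.237 to 0.519, and 0 members were called. Without joint steady-state node replicate 1 or without replicate 2 of that group, 1 member, Hba-a1, was called. Alas2 was at 0.50 (SE 0.553) and Klf1 at −0.53 (SE 0.521), neither called. Slc4a1 and Epor did not pass the filter in the node libraries.

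Klf1 fell in skin migrated cells relative to the skin steady-state node and was the 1 member of 6 called by edgeR, where 36.5% of all genes were called, 15% lower. It had 0, 1 and 1 counts in skin migrated and 17, 10 and 9 in skin steady-state node replicates, with no overlap, and skin nonmigrated replicates had 0, 0 and 6. The ratio of skin steady-state node to skin migrated cells was 9.57 (95% counting interval 2.46 to 82, 36 counts against 2), and edgeR's adjusted p was 0.00283. The globin genes and Alas2 were at log2 fold changes of −1.34 (Hbb-bt, SE 1.24) to 0.71 (Hba-a1, SE 1.00), and none of these 5 was called. Between the joint and skin steady-state nodes 0 of 6 members were called by edgeR, where 3.89% of all genes were called, with 0 at an unadjusted p under 0.05 and 0 called by DESeq2; Klf1, at 6, 9 and 9 counts against 17, 10 and 9, had a log2 fold change of −0.69 (SE 0.478).

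Other genes of the red cell program were taken from lists chosen by function, 47 genes in all, of which 46 had an entry and Ahsp was not analysed here. Of the 34 tested in the inflamed libraries, 5 were called higher and 9 lower in joint migrated than in joint nonmigrated cells, where 16% of all genes were called higher and 18.4% lower. In skin migrated against skin nonmigrated cells 8 were called higher and 11 lower, beside 15.7% and 19.7% of all genes. In joint nonmigrated against skin nonmigrated cells 4 were called higher and 2 lower (5.45% and 8.86% of all genes), and in joint migrated against skin migrated cells 0 either way (1.14%). The interaction of site and migration called 1 of the 34 (6.13% of all genes). In the node libraries 32 were tested. Of these, 4 were called higher and 6 lower in joint migrated cells than in the joint steady-state node (16.9% and 7.31% of all genes), and 8 higher and 5 lower in skin migrated cells than in the skin steady-state node (21.5% and 15%).

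Several genes of these lists with few counts were seen mostly in joint nonmigrated libraries, as Slc4a1 was. Car1, which encodes the red cell carbonic anhydrase of the maturation list, had 18, 48 and 57 counts in joint nonmigrated replicates and 0 in all 15 other libraries. With 3 counts over the group as the floor, joint migrated cells were at least 56.7-fold lower for Car1 and skin nonmigrated cells at least 21.8-fold lower. Kel had 4, 15 and 8 counts and Add2 10, 5 and 5 in joint nonmigrated replicates, and neither exceeded 3 counts in total in any other group. Unlike Slc4a1, which was highest in replicate 1, Car1 and Kel were lowest there. Epb42, Rhag, Tspo2, Trim10 and Trim58 stayed at 12 counts or fewer in every library, and Icam4 was at 0 in all.

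Of the 7 membrane and skeleton genes of 16 that could be tested, 2 rose and 2 fell in joint migrated cells. Over all genes, 16% were called higher and 18.4% lower. Aqp1, a water channel of red cells that endothelium also makes, had 2767, 2397 and 1346 counts in joint nonmigrated replicates and 6, 4 and 2 in joint migrated replicates (edgeR adjusted p = 4.42e-06). Ermap fell by 2.18 on the log2 scale (edgeR adjusted p = 0.000769) and Gypc, glycophorin C, rose by 1.63 (adjusted p = 3.21e-05). Cldn13, a claudin of mouse erythroid cells, went the other way from Slc4a1, with 2, 0 and 1 counts in joint nonmigrated and 37, 53 and 52 in joint migrated replicates. The ratio was 34.2 (95% counting interval 11.5 to 168), with an edgeR adjusted p of 0.000228. Cldn13 also had 28, 19 and 33 counts in skin migrated, 3, 0 and 0 in skin nonmigrated and 0 in all 6 steady-state node libraries. In skin migrated cells Gypc, Sptb and Cldn13 rose and Ank1, Ermap and Aqp1 fell (15.7% of all genes called higher and 19.7% lower).

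Among 10 erythroid transcription factor genes, all tested, 2 rose and 4 fell in joint migrated cells, where 16% of all genes were called higher and 18.4% lower, and the median log2 fold change of the 10 was −0.32. Nfe2 fell by 5.86 on the log2 scale (edgeR adjusted p = 9.04e-07), from 1798, 2019 and 2827 counts to 58, 46 and 55, Tal1 fell by 3.45 (adjusted p = 6.96e-05), Gfi1b fell by 3.17 (adjusted p = 0.0023) and Lmo2 fell by 1.60 (adjusted p = 0.000948). Zfpm1 rose by 1.56 and Bcl11a by 1.54. Gata1, the factor at the head of the list, had 20, 21 and 38 counts against 42, 27 and 35 and was not called. In skin migrated cells Gata1, Tal1, Nfe2, Gfi1b and Lmo2 fell and Zfpm1 and Bcl11a rose (19.7% of all genes called lower and 15.7% higher). Gata1 had 19, 13 and 120 counts in skin nonmigrated and 15, 14 and 22 in skin migrated replicates (edgeR adjusted p = 0.039). Gfi1b had 13, 25 and 73 against 12, 3 and 19 (edgeR adjusted p = 0.039). The ranges of both genes overlapped, and skin nonmigrated replicate 3 was the highest library of its group for each. Several of these genes are also used by megakaryocytes, mast cells, granulocytes or lymphocytes.

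Of the heme synthesis and iron supply genes, 11 of 11 were tested, with a median log2 fold change of −0.26 in joint migrated cells. Fech, which inserts iron into heme, and Slc25a37, mitoferrin, each fell by 1.03 on the log2 scale in joint migrated cells (edgeR adjusted p = 0.000398 and 1.5e-05), and 0 rose. Over all genes, 18.4% were called lower and 16% higher there. In skin migrated cells Slc25a37 fell by 1.93 and Tfrc, the transferrin receptor gene, by 1.32, and Uros and Cpox rose by 1.39 and 1.20 (edgeR adjusted p of 2.13e-07, 0.00197, 0.000113 and 0.000193). Over all genes, 19.7% were called lower and 15.7% higher in skin migrated cells. Of the maturation and hemoglobin-handling genes, Car2 rose by 1.04 in joint migrated cells (edgeR adjusted p = 0.0262), Car1 being the other one called, and in skin migrated cells Bnip3l fell by 2.00 and Cat rose by 1.21. Embryonic globin genes Hba-x, Hbb-y and Hbb-bh2 were at 0 counts in all 18 libraries, and Hbb-bh1 had 9, 0 and 12 counts in joint migrated replicates, 1 or 2 in each steady-state node library and 0 in the rest.

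**Figure D4:**
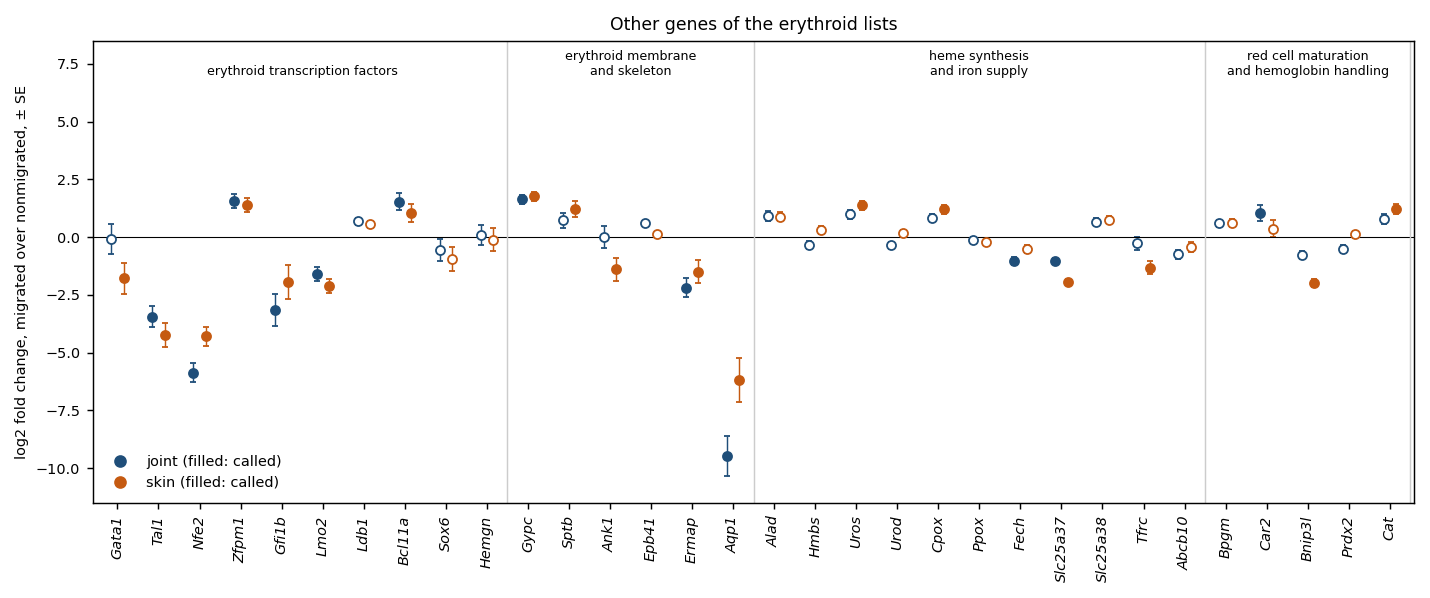
Log2 fold change of migrated over nonmigrated cells (y axis, ± SE computed from edgeR's fold change and F) at the joint (blue) and the skin (orange). The x axis holds the tested genes of 4 erythroid lists, filled where called. Car1 and Cldn13, which had 3 counts or fewer in 1 of the groups compared, are left out. Nfe2 and Tal1 lie below 0 at both sites, at −5.86 and −3.45 in the joint, and the heme genes stay between −1.93 and 1.39.

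Markers of other cells moved with these groups. Immature granulocyte granule genes (Elane, Mpo, Prtn3, Ctsg and Ms4a3) summed to 246 to 1135 CPM in joint nonmigrated, 0.554 to 4.22 in joint migrated and 1.499 to 4.09 in skin nonmigrated libraries, and 5 of 5 were called lower in joint migrated than in joint nonmigrated cells. B cell precursor genes summed to 23.7 to 127 CPM in joint nonmigrated, 5.65 to 7.72 in joint migrated and 0.180 to 2.70 in skin nonmigrated libraries, where Rag2 and Vpreb3 were at 0, and 5 of 6 were called lower in joint migrated cells. Their sums were also high in the steady-state nodes, at 32.05 to 40.2 CPM (joint) and 20.3 to 29.15 CPM (skin). In skin migrated cells, where 3 globin genes fell, 1 of 5 granule genes, Ctsg, was called lower, and of the B cell precursor genes 0 were called lower and 1, Vpreb3, higher. Over all genes, 18.4% were called lower in joint migrated and 19.7% in skin migrated cells, where 15.7% were called higher. Joint nonmigrated replicate 1, the highest for Slc4a1 and globin, was the lowest for the granule genes, at 246 CPM against 1135 and 1020. The part of such cells in the Slc4a1 and globin results was not tested.

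Platelet and megakaryocyte genes summed to 98.9 to 186 CPM in joint nonmigrated and 92.4 to 367 in skin nonmigrated libraries, against 3.40 to 10.3 in the migrated groups. Their highest skin nonmigrated library was replicate 3, whereas globin was highest in replicate 1. Genes of macrophages that take up red cells and recycle iron (Spic, Vcam1, Hmox1, Slc40a1 and Cd163) summed to 935 to 1872 CPM in skin nonmigrated and 387 to 496 in joint nonmigrated libraries, against 25.0 to 76.4 in the migrated groups. Hmox1 made up most of these macrophage sums in nonmigrated cells, averaging 348 CPM at the joint and 1250 CPM in skin. Of the 4 platelet genes of 6 that were tested, 2 were called lower in joint migrated and 3 in skin migrated cells. Over all genes, 18.4% and 19.7% were called lower in these comparisons. The macrophage genes went both ways: Hmox1, Slc40a1 and Cd163 were called lower at both sites, while Spic was called higher at both (log2 fold changes of 3.17 in joint and 1.28 in skin migrated cells, edgeR adjusted p = 0.000353 and 0.0441) and Vcam1 was called higher in skin migrated cells. Called lower in joint migrated cells, beside 18.4% of all genes, were also 5 of 6 eosinophil, 2 of 5 endothelial and 0 of 6 mast cell genes. In skin migrated cells, beside 19.7% of all genes, these numbers were 2 of 6, 5 of 5 and 5 of 6. The part of these cell types in the results was not tested.

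The genes most like the 8 members were ranked by Pearson's r with the mean of the members' log2(CPM + 1), each scaled, over the 18 libraries. Among 18148 genes these were Cpt1a (r = 0.942), Dennd4c (0.925), Echs1 (0.923), Dpysl2 (0.922), B3gnt6 (0.921), 4731419I09Rik (0.918), Tex261 (0.911), Ypel2 (0.910), Flnc (0.909) and Tchh (0.909). Cpt1a, which encodes the carnitine palmitoyltransferase that brings fatty acids into mitochondria, averaged 289 CPM in joint nonmigrated, 158 in skin nonmigrated, 105 in joint migrated, 83.5 in joint steady-state node, 77.0 in skin steady-state node and 74.0 CPM in skin migrated cells. None of the 10 is a gene of the erythroid lists. With Spearman's rank correlation 1 of the 10, Cpt1a (rho = 0.880), stayed among the first 10, so that the ranking depended on the measure.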

How the data were processed

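RNA-Seq was measured in 18 libraries of sorted mouse cells, which in the inflamed groups came from pools of mice. The authors trimmed reads with Trim-Galore!, aligned them to mm10 with TopHat2 and transcriptome version 87, and counted them per gene with HTSeq under default settings; the deposited values are whole-number counts, not normalized. The 5 summary lines were left out of library sizes. Symbols came from GENCODE M21 (49326 of 49585 genes matched). Group came from the sample labels. edgeR 4.0.16 was used with TMM, filterByExpr with a minimum count of 10 and the quasi-likelihood F test. It was fitted to the 12 inflamed libraries (16777 genes) and the 12 node libraries (17107 genes). SEs were computed from the fold change and F. The same fit was also run on simulated counts that gave every gene the same relative spread beyond counting error. Those counts did not mimic the spread of the globin genes between replicates. The call follows the threshold in the methods (adjusted p under 0.05), with absolute log2 fold change above 1. Alternatives were an adjusted p under 0.001, DESeq2 1.42.0, its size factors, other filters, a replicate block, other sets of libraries, library sizes excluding hemoglobin genes, summed globin pairs, raw totals and leaving out each replicate. Replicates of a group differed beyond sampling noise (chi-square per degree of freedom 14.7 to 117). The p-values measure the spread between libraries, which in the inflamed groups are pools. Named genes are the 8 members, list genes that were called or most abundant, and the 10 genes most like the members; Epb42, Rhag, Tspo2, Trim10, Trim58, Icam4, Kel and Add2 were named after their values were seen. The members and lists were chosen with earlier results of these data known.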

Additional observations from a re-analysis of the deposited data

Results flagged for a closer look

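Bnip3l, a gene for the removal of mitochondria in maturing red cells that other cells also use, changed differently at the 2 sites: the interaction of site and migration was 1.23 on the log2 scale (SE 0.236, edgeR adjusted p = 0.0113), with a fall of 2.00 in skin migrated cells and a log2 fold change of −0.78 in joint migrated cells. It had 5587, 6977 and 4834 counts in skin nonmigrated and 2068, 1373 and 1904 in skin migrated replicates, and 4836, 3800 and 4166 against 3750, 3005 and 3584 at the joint. Bnip3l was the 1 of 34 tested erythroid list genes called in the interaction, where 6.13% of all genes were called.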

How the results depend on the processing

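No member changed direction in any comparison where it was called, under any alternative run. Of the log2 fold changes of members under settings other than leaving out a library, 475 kept their side of the threshold, 14 were no longer called and 9 became called. Without 1 library these numbers were 336, 20 and 4, leaving out Klf1 where the fit of all libraries did not test it; it was called once, without skin nonmigrated replicate 3. At an adjusted p under 0.001 the members called were 1 in joint migrated against nonmigrated and 0 in skin migrated against nonmigrated, joint against skin nonmigrated and both comparisons with the steady-state nodes, while all genes called were 3586, 3508, 511 (joint against skin nonmigrated), 0 (joint against skin migrated), 20 (interaction), 2714 (joint migrated against its steady-state node) and 246 (between steady-state nodes). DESeq2's Wald test called 1 member in the interaction and 1 in joint migrated against its steady-state node, where it gave Hba-a1 and Hbb-bs no adjusted p, and 488 genes (joint against skin migrated) and 1756 (interaction). No filter on low counts gave 327 and a fit of all 18 libraries 407 genes in joint against skin migrated, and the latter 1664 in the interaction. Fitting the compared groups alone called 2 members in skin migrated against nonmigrated and 0 in skin migrated against its steady-state node, where 10 counts in every library of 1 group also gave 0, since Klf1 was then not tested.

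Leaving out each library in turn gave 2 to 3 members in joint migrated against nonmigrated, 0 to 5 in skin, 1 to 2 in joint against skin nonmigrated and 0 to 3 in joint migrated against its steady-state node. All genes called ranged from 1745 to 3720 (joint against skin nonmigrated), 58 to 171 (joint against skin migrated) and 582 to 2610 (interaction). Same-numbered libraries deviated from their group means with correlations of −0.23 to 0.191 over all pairs of groups and of 0.0117 to 0.191 between migrated and nonmigrated cells of a site, where 10 of 12 libraries correlated best with their own number; since not every pair was over 0.1, the numbers were not taken to pair the samples, although replicate 1 was the highest globin library in all 4 inflamed groups. With the replicate number as a block, 5 members were called in joint migrated against nonmigrated, where Hba-a1 (log2 fold change −1.998, edgeR adjusted p = 0.0184), Hbb-bs (−1.75, 0.0274) and Hbb-bt (−1.75, 0.0483) were added, and 1 in joint migrated against its steady-state node. In skin migrated against nonmigrated the block added Hbb-bt (edgeR adjusted p = 0.0164) and lost Epor (0.0648). Counts of the members were low, and for Klf1, Epor, Alas2 and, outside joint nonmigrated cells, Slc4a1, differences of a few counts lay within counting error.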
